A study of Mus musculus with 12 samples.

Results

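The transcripts described here encode 9 proteins of heme synthesis, namely Alas1, Alas2, Slc25a38, Alad, Uros, Urod, Cpox, Ppox and Fech. They were chosen by symbol as a pathway, and they and the gene lists below were chosen with earlier results of these data known. The table's Ensembl identifiers were matched to mouse symbols. All 9 had a row among the 48795 genes of the deposited counts and passed the filter on low counts. They were measured by RNA sequencing in leukemic long-term hematopoietic stem cells (LTHSC), the rare cells from which blood is renewed, which were isolated by flow cytometry from the marrow of C57BL/6 animals with CML, chronic myeloid leukemia. The series gives 3 groups of 4 biological replicates. No_Cre mice carried no Cre, Tek_Cre mice carried Tek-Cre, a Cre driven by Tek regulatory sequences and known to be active in endothelial and also in blood-forming cells, and Prx1_Cre mice carried Prx1-Cre, known to be active in mesenchymal stroma. The labels call the mice recipients as well as primary mice, and do not give their age, the leukemia model, the genotype at Cxcl12 or whether animals were pooled, and whether the sorted cells themselves carried the Cre is not stated. The title of the series concerns Cxcl12, a chemokine that retains stem cells in marrow, and its source in the mesenchymal niche.

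Heme is an iron-containing ring that carries oxygen in hemoglobin and electrons in cytochromes. Its synthesis begins in mitochondria, where 5-aminolevulinate synthase joins glycine and succinyl-CoA, continues in the cytosol and ends in mitochondria with the insertion of iron. Alas1 encodes the form of the first enzyme that all cells use and that heme represses, and Alas2, an X-linked gene, the erythroid form, which is induced as red cell precursors make hemoglobin. Stem cells make little heme compared with erythroid cells, and Gata1 and Klf1 are transcription factors known to act on heme genes in erythroid cells.

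The libraries held 15715603 to 28860324 counts. Immunoglobulin genes took 7.31 to 7.71% of counts in No_Cre, 25.2 to 26.0% in Tek_Cre and 0.296 to 0.310% in Prx1_Cre. Transcripts of the mitochondrial genome took 0.117 to 0.142%, 0.105 to 0.126% and 0.282 to 0.456% in the same order, and the part of either share in the results was not tested. Prx1_Cre replicate 4 was the library least like its companions: the chi-square of its counts per degree of freedom was 10.5 or more in each of its 3 pairs and 1.75 to 7.20 in the other 15 pairs of libraries of 1 group. All 12 LTHSC markers listed were detected in each group, and their summed level was 2073 to 2112 CPM for No_Cre, 2547 to 2575 for Tek_Cre and 1214 to 1267 for Prx1_Cre. In Prx1_Cre against No_Cre 10 of the 12 fell, where 39.0% of all genes tested fell. CPM is the count scaled to a common library size after TMM normalization. Changes are log2 fold changes ± SE from edgeR's quasi-likelihood test on all 14756 genes that passed the filter, and a gene is said to have risen or fallen where its Benjamini-Hochberg adjusted p was under 0.05. The SEs and p-values measure the spread between libraries. As pooling is not stated, that spread may be smaller than the spread between animals.

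The promoters of the members differed in the letters known from erythroid genes. RefSeq windows on GRCm38.p6, from 250 bases before to 50 bases after an annotated start, were held for 8 of the 9 members in 11 windows. They were searched on both strands for the GATA box, which Gata1 binds (GATA with A or T before it and A or G after it), for the CACCC box, which Klf1 binds, and for TGCGCA, a part of the site of NRF1, a factor of mitochondrial genes. Among all 32841 windows of this length 29.8% held a GATA box, 57.5% a CACCC box and 7.76% the NRF1 letters. Of the 11 member windows 3 held a GATA box, at Alas2, at the downstream of the 2 starts of Uros and at Cpox, and 7 held a CACCC box. Both counts were near the shares over all windows. No window was held for Fech, and the window at the upstream start of Uros had no GATA box. Shown is the sequence before the start for the 3 windows with a GATA box and for Urod, which had none. Urod was picked after the values were seen, as the member with the smallest change in Prx1_Cre against No_Cre. The windows of Alas1, Slc25a38, Alad and Ppox also had no GATA box and are not shown, so the set shown is not a fair sample of the members. Any link between these letters and the changes was not tested. Among the windows shown, exons annotated in GENCODE M21 reach into those of Alas2 and Uros, leaving 208 and 134 of the 250 bases outside them. The Uros sequence stops there, before its second match, and that of Alas2 runs on for 17 exon bases to the end of its last match, 225 bases in all. Capitals mark the matches. All the GATA boxes stand on the strand opposite to the one shown, where they read TATC, and so do the CACCC boxes shown, which read GGGTG.
Alas2 (chrX:150547167-150547391, plus strand): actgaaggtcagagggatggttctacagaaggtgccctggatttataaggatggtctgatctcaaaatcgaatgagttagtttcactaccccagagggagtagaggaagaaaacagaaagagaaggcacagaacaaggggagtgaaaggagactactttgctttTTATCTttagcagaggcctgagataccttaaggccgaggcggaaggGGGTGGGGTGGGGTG
Uros downstream start (chr7:133702617-133702750, minus strand): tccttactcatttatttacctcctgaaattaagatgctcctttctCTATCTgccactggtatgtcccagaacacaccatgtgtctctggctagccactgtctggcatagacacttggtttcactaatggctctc
Cpox (chr16:58669958-58670207, plus strand): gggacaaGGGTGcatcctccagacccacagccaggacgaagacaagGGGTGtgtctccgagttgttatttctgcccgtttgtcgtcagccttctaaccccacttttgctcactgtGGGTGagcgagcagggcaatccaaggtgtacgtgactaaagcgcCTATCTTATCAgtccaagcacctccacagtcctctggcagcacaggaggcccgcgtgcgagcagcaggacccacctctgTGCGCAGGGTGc
Urod (chr4:116994414-116994663, minus strand): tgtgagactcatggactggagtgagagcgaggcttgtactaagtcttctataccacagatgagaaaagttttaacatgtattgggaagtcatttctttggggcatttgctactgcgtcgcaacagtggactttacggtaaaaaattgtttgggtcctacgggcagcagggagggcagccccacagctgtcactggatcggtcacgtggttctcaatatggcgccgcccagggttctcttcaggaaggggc

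In the Alas2 window the GATA letters began 86 bases before the start and were followed by 3 CACCC boxes in tandem from 40 bases before it, which lie inside the first exon of the GENCODE M21 model. The Uros window had GATA letters at 205 and 68 bases before the start and no CACCC box. The Cpox window had 2 GATA matches that share 1 base, at 91 and 86 bases before the start, a further one 4 bases after it, 4 CACCC boxes and the NRF1 letters 12 bases before it. Neither window of Alas1 held a GATA box or the NRF1 letters. Both windows lie inside the GENCODE M21 gene model and begin in an annotated exon. The bases before that model, which starts at 106248654 on chromosome 9, were therefore not searched. These matches describe letters only, and binding was not measured. The RefSeq start of Alas2 lies inside the GENCODE M21 gene model, which begins at 150547375 on chromosome X.

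**Figure D1:**
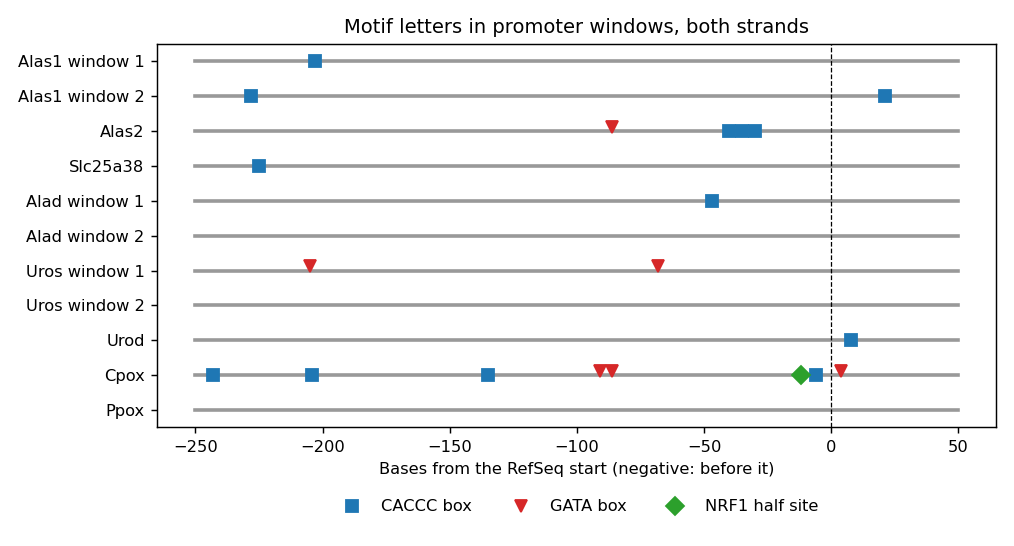
Positions of motif letters in the RefSeq promoter windows of 8 heme synthesis genes, in bases from the annotated start (x axis, negative before the start), 1 line per window. Red triangles mark GATA boxes, which stand in the windows of Alas2, Uros (downstream start) and Cpox, blue squares CACCC boxes in 7 of the 11 windows, and the green diamond the NRF1 letters at Cpox.

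In Prx1_Cre all 9 transcripts were higher than in No_Cre, and the erythroid Alas2 changed most. All 9 rose with no overlap between the groups' libraries, from 1.76-fold for Urod to 28.6-fold for Alas2, with a median log2 fold change of 1.33, where 36.7% of all genes tested rose, 39.0% fell, 33.2% were higher with no overlap and the median over all genes was -0.02. In Tek_Cre against No_Cre the pathway moved in both directions. Alas1, Alas2, Slc25a38, Urod and Cpox fell, Alad rose and Uros, Ppox and Fech did not pass the test (median -0.16). Over all genes tested 26.5% fell and 26.4% rose in that comparison, and the 6 that changed did so with no overlap, as 24.5% (lower) and 24.3% (higher) of all genes did. All 9 were also higher in Prx1_Cre than in Tek_Cre (median 1.70), where 37.8% of all genes rose, 39.8% fell and 33.5% were higher with no overlap. Without Prx1_Cre replicate 4 all 18 of these rises were still called, and the largest shift of a member's log2 fold change was 0.08. The 3 comparisons share their groups, so their values stand side by side and do not support each other.

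Alas2 (ENSMUSG00000025270, chromosome X, 150547375 to 150570638) was scarce outside Prx1_Cre. It stood at 1.12, 1.61, 1.02 and 1.11 CPM in the No_Cre libraries, or 23 to 42 counts each. In Tek_Cre it stood at 0.963, 0.887, 0.911 and 0.536 CPM, or 12 to 22 counts. In Prx1_Cre it stood at 34.6, 34.5, 34.1 and 37.5 CPM, from 838 to 1060 counts. Every Prx1_Cre library was above every other library by a wide margin, and the Tek_Cre libraries lay just below those of No_Cre without overlap. The log2 fold change was 4.84 ± 0.12 against No_Cre (edgeR, adjusted p = 5.35e-21) and 5.43 ± 0.13 against Tek_Cre (adjusted p = 2.96e-21). Ordered from the largest rise, it was number 71 of the 14756 genes tested in Prx1_Cre against No_Cre.

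The fall of Alas2 in Tek_Cre (-0.60 ± 0.22, adjusted p = 0.0258) rested on few counts. The call was lost without No_Cre replicate 2 (log2 fold change -0.42, adjusted p = 0.140), without Tek_Cre replicate 4 (-0.41, adjusted p = 0.141) and with only the 8 libraries compared (-0.60, adjusted p = 0.0531). Exons of Alas2 share 311 of their 2403 bases with Apex2, a DNA repair gene on the opposite strand. The libraries do not mark strand, so reads of the 2 genes cannot be told apart there. Apex2 stood at 15.9 ± 0.931 CPM for No_Cre, 9.89 ± 0.706 in Tek_Cre and 13.8 ± 1.248 in Prx1_Cre. It fell in Tek_Cre against No_Cre (-0.68 ± 0.09, adjusted p = 5.31e-07) and in Prx1_Cre against No_Cre (-0.21 ± 0.08, adjusted p = 0.0232), where Alas2 rose. The part of Apex2 reads in the few Alas2 counts of No_Cre and Tek_Cre was not tested.

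Alas1 (ENSMUSG00000032786, chromosome 9, 106233455 to 106248654), the housekeeping form, moved in opposite directions in the 2 Cre groups. It stood at 228, 219, 221 and 228 CPM in No_Cre and at 128, 129, 129.8 and 134 CPM in Tek_Cre. In Prx1_Cre it stood at 515, 515, 522 and 596 CPM. The 3 groups did not overlap, with Tek_Cre lowest and Prx1_Cre highest, and Prx1_Cre replicate 4 was above its 3 companions. Alas1 fell 1.72-fold in Tek_Cre (-0.78 ± 0.04, adjusted p = 5.17e-13), rose 2.40-fold in Prx1_Cre (1.26 ± 0.04, adjusted p = 8.30e-18), and stood 4.12-fold above Tek_Cre in Prx1_Cre (2.04 ± 0.05, adjusted p = 5.74e-22). It was the largest fall among the 9 members in Tek_Cre against No_Cre.

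**Figure D2:**
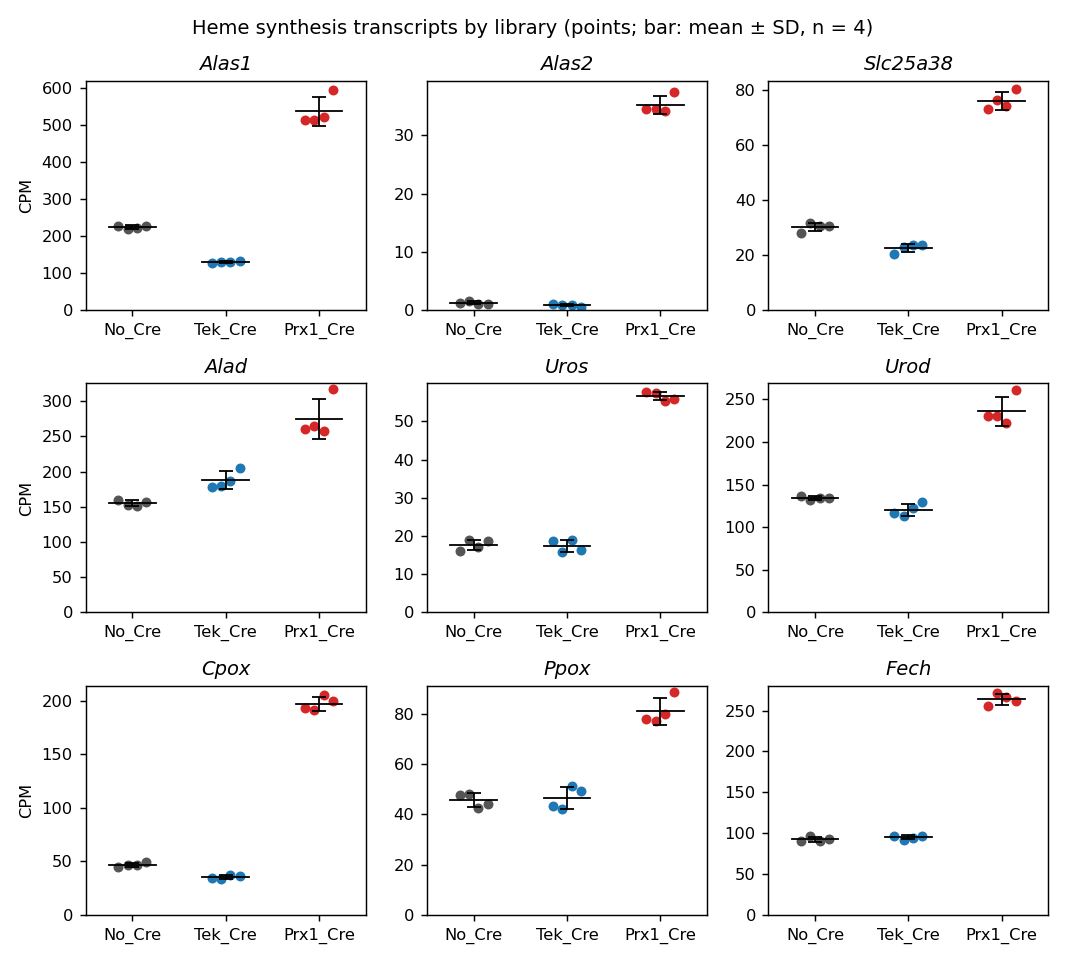
Level of each heme synthesis transcript in CPM (y axis from 0, own scale per gene) in the 4 libraries of No_Cre, Tek_Cre and Prx1_Cre (points, with mean and SD as lines). The Prx1_Cre libraries lie above the libraries of the other groups in all 9 panels, and Alas2 is near 0 outside Prx1_Cre.

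Alas2 rose far more than Alas1, so the balance of the 2 forms of the first enzyme shifted in Prx1_Cre. Alas2 made up 0.540 ± 0.128% of the counts of both genes in No_Cre, 0.631 ± 0.157% in Tek_Cre and 6.16 ± 0.177% in Prx1_Cre (SD, n = 4 each). The No_Cre libraries gave 0.488, 0.731, 0.458 and 0.484%, those of Tek_Cre 0.746, 0.684, 0.697 and 0.3995%, and those of Prx1_Cre 6.30, 6.29, 6.14 and 5.92%. Prx1_Cre was apart from both other groups, which overlapped each other. The ratio was 12.1-fold higher in Prx1_Cre than in No_Cre (log2 difference 3.60 ± 0.16) and 10.3-fold higher than in Tek_Cre (3.36 ± 0.21). In each case the two-sided exact permutation p was 0.0286, the smallest that 4 against 4 libraries allow, and 0.0429 adjusted over the 3 comparisons. Tek_Cre and No_Cre differed by 0.23 ± 0.26 (exact permutation p = 0.457). The 4 Tek_Cre libraries held 64 Alas2 counts in all. Per kilobase of transcript Alas1 was still the far higher form in every group, at 158 ± 11.6 CPM per kilobase in Prx1_Cre against 17.3 ± 0.758 for Alas2.

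**Figure D3:**
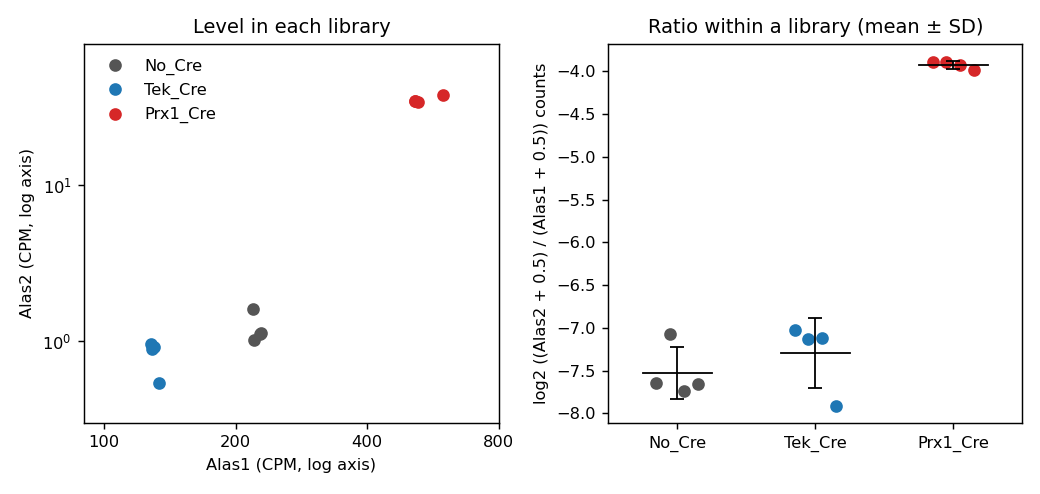
Left, level of Alas2 against Alas1 in each library, in CPM on log axes. Right, log2 ratio of Alas2 to Alas1 counts, each plus 0.5, in each library (points) with mean and SD. The 4 Prx1_Cre libraries lie between -3.99 and -3.89 on the log2 scale and the other 8 between -7.91 and -7.02.

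Slc25a38 (ENSMUSG00000032519, chromosome 9, 120110374 to 120124504), a mitochondrial carrier that brings in glycine for the first step, followed the same order of groups as Alas1. It stood at 28.2, 31.8, 30.5 and 30.7 CPM in No_Cre, 20.3, 23.0, 23.5 and 23.6 CPM in Tek_Cre and 73.0, 76.3, 74.1 and 80.4 CPM in Prx1_Cre. The groups did not overlap. It rose in Prx1_Cre against No_Cre (1.33 ± 0.06, adjusted p = 5.72e-16) and fell in Tek_Cre (-0.43 ± 0.06, adjusted p = 4.45e-06).

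The cytosolic enzymes changed by different amounts. Alad (ENSMUSG00000028393, chromosome 4, 62509169 to 62519918), which joins aminolevulinate into porphobilinogen, stood at 159.7, 152, 150.4 and 157 CPM in No_Cre, 178, 179, 187 and 206 CPM in Tek_Cre and 260.0, 264, 258 and 317 CPM in Prx1_Cre. It was the only member that rose in both Cre groups against No_Cre, by 0.28 ± 0.06 in Tek_Cre (adjusted p = 0.000270) and 0.83 ± 0.06 in Prx1_Cre (adjusted p = 3.58e-12). Prx1_Cre also exceeded Tek_Cre (0.55 ± 0.06, adjusted p = 4.43e-09), the smallest of the 9 changes in that comparison. Without Prx1_Cre replicate 4, the highest library, the change from Tek_Cre was 0.48 (adjusted p = 1.54e-13).

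Uros (ENSMUSG00000030979, chromosome 7, 133686243 to 133710072), uroporphyrinogen III synthase, which closes the ring, stood at 16.1, 19.0, 17.2 and 18.7 CPM in No_Cre, 18.6, 15.9, 19.0 and 16.2 CPM in Tek_Cre and 57.7, 57.6, 55.3 and 56.0 CPM in Prx1_Cre. The libraries of No_Cre and Tek_Cre overlapped and did not pass the test (-0.02 ± 0.07, adjusted p = 0.831), while Prx1_Cre was 3.19-fold above No_Cre (1.68 ± 0.07, adjusted p = 8.81e-17). Counts per gene do not say which of the 2 starts of Uros was used. Urod (ENSMUSG00000028684, chromosome 4, 116989965 to 116994413), the decarboxylase that follows, had the smallest rise in Prx1_Cre against No_Cre (236 ± 17.2 against 134 ± 1.96 CPM, 0.81 ± 0.05, adjusted p = 2.41e-13). Its fall in Tek_Cre, at 120.2 ± 7.17 CPM, was also small (-0.16 ± 0.05, adjusted p = 0.00966).

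Of the 3 last enzymes, which act in mitochondria, Cpox changed most. Cpox (ENSMUSG00000022742, chromosome 16, 58670292 to 58717636), coproporphyrinogen oxidase, stood at 44.7, 46.4, 46.9 and 49.2 CPM in No_Cre, 34.5, 33.7, 37.0 and 36.6 CPM in Tek_Cre and 193, 191, 205 and 199.5 CPM in Prx1_Cre. Its groups did not overlap. It was 4.22-fold higher in Prx1_Cre than in No_Cre (2.08 ± 0.04, adjusted p = 6.93e-22), second to Alas2 among the members, and fell in Tek_Cre (-0.40 ± 0.05, adjusted p = 3.54e-07). Ppox (ENSMUSG00000062729, chromosome 1, 171275990 to 171281186), protoporphyrinogen oxidase, rose from 45.7 ± 2.72 to 81.0 ± 5.36 CPM in Prx1_Cre (0.83 ± 0.06, adjusted p = 2.31e-11). In Tek_Cre it stood at 46.6 ± 4.52 CPM and did not pass (0.03 ± 0.07, adjusted p = 0.722). Its exons share 791 of 4515 bases with B4galt3 on the opposite strand, which rose less in Prx1_Cre (0.38 ± 0.07, adjusted p = 2.58e-05), and reads of the 2 genes cannot be told apart there.

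Fech (ENSMUSG00000024588, chromosome 18), ferrochelatase, which inserts iron into protoporphyrin, stood at 90.6, 96.6, 90.2 and 93.0 CPM in No_Cre and 97.0, 92.1, 94.2 and 96.5 CPM in Tek_Cre, groups that overlapped. In Prx1_Cre it stood at 255, 271, 266 and 262 CPM. It was 2.84-fold higher in Prx1_Cre than in No_Cre (1.51 ± 0.04, adjusted p = 1.83e-20) and did not pass in Tek_Cre (0.04 ± 0.04, adjusted p = 0.453). In the sizes of their changes in Prx1_Cre against No_Cre, Alas2 stood alone, Cpox, Uros, Fech, Slc25a38 and Alas1 lay between 1.26 and 2.08, and Alad, Urod and Ppox between 0.81 and 0.83.

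**Figure D4:**
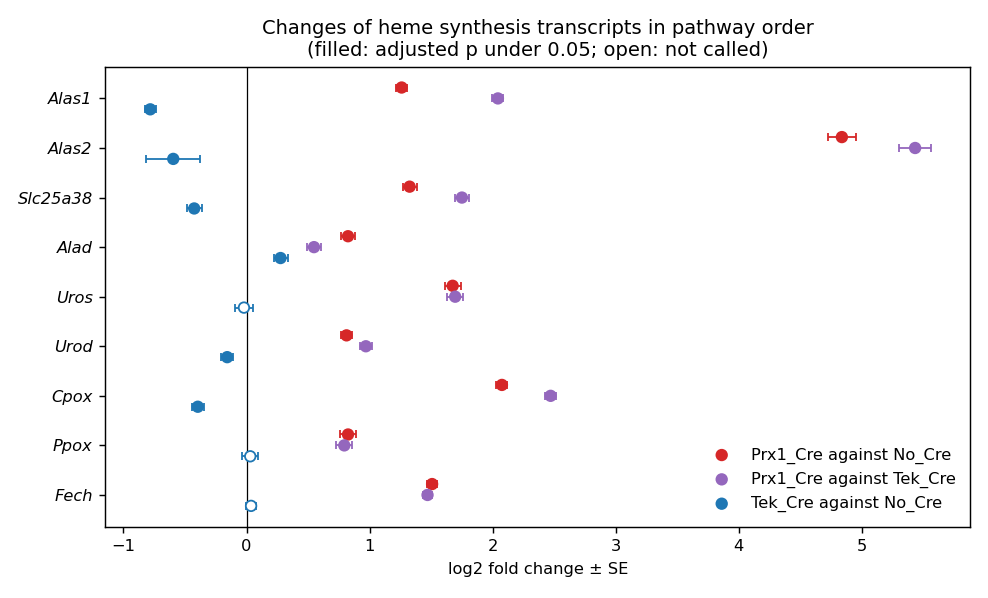
Log2 fold change ± SE of the 9 transcripts (rows, in pathway order) in the 3 comparisons (colours, filled where the adjusted p was under 0.05). All 18 changes that involve Prx1_Cre lie right of 0, and the changes of Tek_Cre against No_Cre lie between -0.78 and 0.28.

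Set beside each other per kilobase of the principal transcript, the levels of the members kept much of their order. Alad was highest in each group (124 ± 3.46 CPM per kilobase in No_Cre, 150.4 ± 10.2 in Tek_Cre and 220.3 ± 22.5 in Prx1_Cre), followed by Urod and Alas1, and Alas2 was lowest. In Prx1_Cre Urod (158 ± 11.5) and Alas1 (158 ± 11.6) did not differ beyond their spread, while in No_Cre they stood at 90.2 ± 1.31 and 65.9 ± 1.39. Cpox moved from 15.1 ± 0.596 CPM per kilobase in No_Cre, close to Slc25a38 (16.9 ± 0.860) and Fech (14.1 ± 0.444), to 63.7 ± 2.10 in Prx1_Cre, above Ppox (44.5 ± 2.94), Slc25a38 (42.4 ± 1.81) and Fech (40.1 ± 1.02). As a share of the summed level of the 9 per kilobase, Alas2 took 0.165 ± 0.0369% in No_Cre, 0.119 ± 0.0320% in Tek_Cre and 2.23 ± 0.0476% in Prx1_Cre. Cpox took 4.17 ± 0.176%, 3.33 ± 0.0858% and 8.22 ± 0.528%, while Alad took 34.3 ± 0.498%, 43.7 ± 0.871% and 28.3 ± 0.997%. With the length of all annotated exons in place of the principal transcript, Alad, Urod and Alas1 were again the 3 highest and Alas2 the lowest in each group, while the order among Ppox, Slc25a38 and Fech depended on the length used.

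The genes that feed the pathway were higher in Prx1_Cre in most cases. For the counts of this and the following lists, the shares over all genes tested are the comparison. In Prx1_Cre against No_Cre 36.7% rose and 39.0% fell, and in Tek_Cre 26.4% rose and 26.5% fell. In the iron supply, iron-sulfur and heme handling lists the counts that fell in Tek_Cre were near that share. Of 10 genes of glycine and succinyl-CoA metabolism, 7 rose, 1 fell and 2 did not pass the test in Prx1_Cre against No_Cre (median 0.41). The 1 that fell was Gldc, which breaks glycine down (-1.26). It had 13 to 23 counts per library in No_Cre and 3 to 10 in Prx1_Cre. With a stricter filter on low counts 0 genes of the list fell. Shmt2, the mitochondrial enzyme that makes glycine, rose to 506 ± 41.2 from 287 ± 10.1 CPM (0.82 ± 0.05, adjusted p = 5.45e-13). The dehydrogenase subunits Dlst, which helps to form succinyl-CoA, and Dld rose by 0.58 ± 0.04 and 0.93 ± 0.07. In Tek_Cre 0 rose, 4 fell and 6 did not pass (median -0.11), with the cytosolic Shmt1 at -0.30 ± 0.04 (adjusted p = 3.76e-06) and Slc6a9, a glycine transporter at 3.54 ± 0.384 CPM in No_Cre, at -0.79 ± 0.16 (adjusted p = 0.000191).

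Of 15 genes of iron supply, 11 rose, 3 fell and 1 did not pass in Prx1_Cre (median 0.42). Among those that rose were Slc40a1, the iron exporter ferroportin (173 ± 5.58 against 44.1 ± 1.98 CPM, 1.98 ± 0.05, adjusted p = 4.18e-21), Steap3, which reduces iron in endosomes (61.6 ± 4.66 against 10.5 ± 1.21 CPM, 2.55 ± 0.08), and Slc11a2, which carries iron out of endosomes (1.67 ± 0.05). The largest change of the list, picked out after its values were seen, was that of the transferrin receptor Tfrc, at 246 ± 42.9 against 21.8 ± 2.25 CPM (3.49 ± 0.11, adjusted p = 1.27e-15). In Tek_Cre 2 rose, 5 fell and 8 did not pass (median -0.07), with Steap3 at -1.11 ± 0.10 and Slc25a37, the mitochondrial iron importer mitoferrin 1, at -0.69 ± 0.08 (adjusted p = 1.83e-07).

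Iron-sulfur cluster assembly makes cofactors in mitochondria from the same iron pool. Of its 13 genes 9 rose, 2 fell and 2 did not pass in Prx1_Cre (median 0.27), with the glutaredoxin Glrx5 at 0.92 ± 0.04 and the chaperone Hspa9 at 1.04 ± 0.05 on the higher side and its co-chaperone Hscb at -0.73 ± 0.05 on the lower side. In Tek_Cre 1 rose, 3 fell and 9 did not pass, with the cysteine desulfurase Nfs1 at -0.50 ± 0.05 (adjusted p = 2.58e-09) and Iba57, a late assembly factor, at -0.42 ± 0.07.

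Of 14 genes of heme handling and breakdown 13 were tested, and in Prx1_Cre 10 rose, 3 fell and 0 did not pass (median 0.61). Blvrb, a biliverdin reductase, stood at 300.03 ± 16.9 against 59.7 ± 2.57 CPM (2.33 ± 0.06, adjusted p = 3.42e-20). Hmox1, the inducible heme oxygenase, stood at 33.1 ± 3.03 against 7.49 ± 0.323 CPM (2.14 ± 0.08, adjusted p = 5.92e-17). Tmem14c, which carries a porphyrin precursor into mitochondria, rose by 0.82 ± 0.04. In Tek_Cre 2 rose, 4 fell and 7 did not pass (median -0.11). The heme-sensing repressor Bach1, which is known to repress Hmox1, fell in both groups against No_Cre, with log2 fold changes of -1.005 ± 0.11 in Tek_Cre (adjusted p = 7.84e-08) and -0.57 ± 0.10 in Prx1_Cre (adjusted p = 2.52e-05), while Hmox1 did not pass in Tek_Cre (-0.19 ± 0.10, adjusted p = 0.108).

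The erythroid regulators did not move as a block. Of 10 listed, 3 rose, 6 fell and 1 did not pass in Prx1_Cre (median -0.50). Those that rose were Klf1 (257 ± 16.8 against 29.1 ± 1.47 CPM, 3.14 ± 0.05, adjusted p = 3.90e-24), the erythropoietin receptor Epor (2.09 ± 0.06) and Gata1 (249.2 ± 13.02 against 93.3 ± 1.26 CPM, 1.42 ± 0.05), and Zfpm1, a partner of Gata1, was among those that fell (-0.74 ± 0.05). In Tek_Cre 0 rose, 4 fell and 6 did not pass, with Klf1 at 10.03 ± 0.616 CPM (-1.54 ± 0.07, adjusted p = 2.77e-15) and Zfpm1 at -0.48 ± 0.05 (adjusted p = 5.90e-08).

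**Figure D5:**
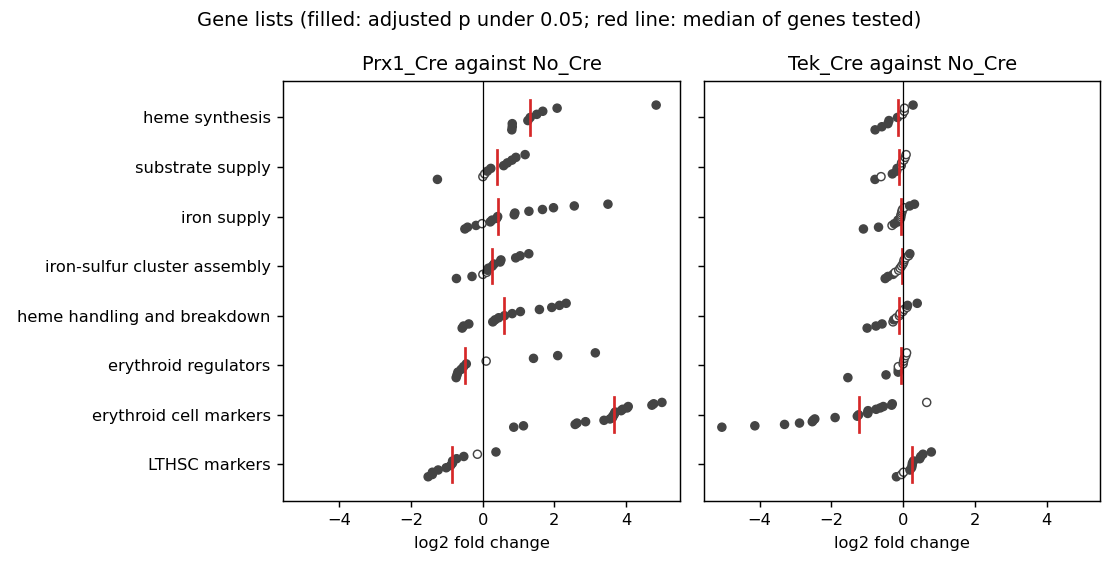
Log2 fold change of each gene tested (points, filled where the adjusted p was under 0.05) in 8 gene lists (rows) for Prx1_Cre and Tek_Cre against No_Cre, with the median of a list as a red line. The medians of the 9 heme synthesis genes and the 19 erythroid markers in Prx1_Cre were 1.33 and 3.66, and that of the 12 LTHSC markers was -0.87.

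Markers of erythroid cells rose with the heme enzymes in Prx1_Cre. In Tek_Cre nearly all of these markers fell, while the heme enzymes moved in both directions. All 19 erythroid markers measured, none of them a member, rose in Prx1_Cre against No_Cre (median 3.66), where 36.7% of all genes tested rose. In Tek_Cre 0 of the markers rose, 18 fell and 1 did not pass (median -1.24), where 26.5% of all genes tested fell. The markers' summed level was 1676 to 1720.1 CPM for No_Cre, 1179.9 to 1229 for Tek_Cre and 6544 to 6694 for Prx1_Cre. Car2 alone stood at 1340 ± 19.6, 1085 ± 14.8 and 2948 ± 70.5 CPM in the same order, most of the sum in No_Cre and Tek_Cre. Each marker had counts in each group, but some were near the floor in Tek_Cre. Summed over its 4 libraries, Epb42 had 2 counts, Trim10 13 and Ank1 19. The early marker Car1, a carbonic anhydrase, stood at 1696 ± 54.0 CPM in Prx1_Cre against 162 ± 4.38 in No_Cre, and the red cell anion exchanger Slc4a1 at 19.6 ± 0.776 against 0.751 ± 0.492; these 2 were picked after their values were seen. Neutrophil markers moved too, with 10 of 12 rising and 1 falling in Prx1_Cre against No_Cre, and 6 rising and 6 falling in Tek_Cre. The neutrophil sum was 30385 to 30727 CPM for No_Cre, 38384 to 38861 for Tek_Cre and 52807 to 55146 for Prx1_Cre. In Prx1_Cre against No_Cre 7 of 9 megakaryocyte markers tested fell and 1 rose, where 39.0% of all genes tested fell. Of the mast cell, basophil and eosinophil markers 8 of 10 tested fell and 1 rose there. In bulk samples a change in the number of erythroid cells and a change of RNA per cell cannot be told apart, and the part of these markers' cells in the heme results was not tested.

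Genes with the pattern most like that of a member were named by the root mean square difference of centred log2 values over the 12 libraries, among 9997 genes. Closest to Alas2 were the alpha globin Hba-a2 (difference 0.207), whose counts depend on reads shared with its near-identical neighbour, the Rh family genes Rhag (0.264) and Rhd (0.289), the receptor gene Paqr9 (0.306) and the beta globin Hbb-bs (0.308). Paqr9, for example, stood at 2.05 ± 0.169, 1.10 ± 0.364 and 37.9 ± 1.02 CPM in No_Cre, Tek_Cre and Prx1_Cre. Closest to Alas1 were Ifrd2 (0.125), Oasl1 (0.126), Sparc (0.131), Gpsm2 (0.133) and the lysosomal galactosidase Gla (0.136), with Gpsm2, a spindle orientation gene, at 50.6 ± 0.804, 34.1 ± 0.948 and 119.8 ± 3.33 CPM. Hba-a2, Rhag, Rhd and Hbb-bs were also among the erythroid markers, and neither list named another member of the pathway. The genes compared needed a mean of at least 5 CPM over the 12 libraries. Hba-a2, Paqr9 and Sparc reached it only through Prx1_Cre, the group where they were high, so their likeness partly reflects that filter.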

How the data were processed

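The authors deposited 1 table of raw counts per gene, with 48795 Ensembl identifiers and 1 column per library, and its 12 columns were used. Per the labels' protocols, low-input SMARTer cDNA (v4) was made into libraries by Nextera XT, which does not mark strand. Per the submitters' processing notes, the build was GRCm38 and the tools were DESeq2 1.18.1, HTSeq 0.9.1, STAR 2.5.3a and Trim Galore 0.4.4, and the annotation, strand setting and filters are not given in the sources used here. Symbols matched 48349 identifiers, and 1 of 168 listed symbols (Ahsp) had no row. Coordinates are those of GENCODE M21.

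Counts were fitted with edgeR 4.0.16 in R 4.3.3 (filterByExpr, TMM factors, robust quasi-likelihood fit, group term, all 12 libraries), and SEs were taken as the log2 fold change divided by the root of F. The Alas2 to Alas1 ratio used a pseudocount of 0.5. The fit was run on simulated data before use, with 50 genes changed per fold size among 14756. It called 56% of those changed 1.25-fold and 93.75% of those changed 2-fold in the right direction. Far fewer genes changed there than in these data, so the scaling and error rate under wide change were not tested. Named genes were the 9 members, per list the 3 of smallest p in Prx1_Cre and the 2 in Tek_Cre against No_Cre, and the 5 genes most like Alas2 and Alas1 (mean of at least 5 CPM, no gene models or pseudogenes). Members and lists were chosen with earlier results of these data known. The kit adds no molecular identifiers, so counts are not independent molecules. Alternatives changed the scaling, the filter, the tool, the libraries fitted and the pseudocount.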

Additional observations from a re-analysis of the deposited data

Results flagged for a closer look

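Each group has 4 libraries, and 30 sets of 4 values were searched for a library far from its companions, of which chance gives about 1 in 20. In 5 sets 1 library stood apart. Prx1_Cre replicate 4 was highest for Alas1 (596 CPM), Alas2 (37.5 CPM) and Alad (317 CPM), and the same library was the farthest from its group over all genes. Without it the log2 fold changes in Prx1_Cre against No_Cre were 1.21 for Alas1, 4.81 for Alas2 and 0.75 for Alad, all still called. No_Cre replicate 2 had the highest log2 ratio of Alas2 to Alas1 in its group (-7.07, from 42 Alas2 counts), and Tek_Cre replicate 4 the lowest in its group (-7.91, from 13 Alas2 counts).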

How the results depend on the processing

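Of 432 values of the 9 members under the alternatives, 429 kept their side of the threshold, and no called change reversed. In Tek_Cre against No_Cre the log2 fold changes of Uros (-0.07 to 0.01) and Ppox (-0.02 to 0.07), which were not called, took both signs. The alternatives were median-of-ratios and upper-quartile factors, no filter, a stricter filter, DESeq2, only the 8 libraries compared, the replicate block, libraries without immunoglobulin genes each library left out and, for the ratio, pseudocounts of 0.1 and 2. The 3 exceptions were those of Alas2 in Tek_Cre against No_Cre given in the report. The counts of members called in each direction stayed within 1.5 times, as did the counts over all genes. Libraries of equal number in their titles did not all deviate together (correlation -0.0544 to 0.316 over 12 pairs), so the numbers were not taken to pair them, although all 3 pairs of number 4 correlated above 0.1 (0.109, 0.164 and 0.316, the last being the highest of the 48 pairs of libraries from different groups). With a replicate block no member's call changed. The log2 ratio of Alas2 to Alas1, paired by these numbers, was 3.60 for Prx1_Cre against No_Cre and 3.36 against Tek_Cre, with an exact sign-flip permutation p of 0.125, the smallest that 4 pairs allow. With 1 library left out it ran from 3.53 to 3.75 against No_Cre, from 3.16 to 3.45 against Tek_Cre and from 0.14 to 0.44 for Tek_Cre against No_Cre, where 3 against 4 libraries allow no exact permutation p under 0.0571. Among the other named genes 1036 of 1056 values kept their side. Shmt1 in Prx1_Cre was called in the main analysis but not with upper-quartile factors (adjusted p = 0.466) or without No_Cre replicate 3 (0.0533), and Gata1 in Tek_Cre was not called without No_Cre replicate 1, 2 or 4 or Tek_Cre replicate 1 or 2 (0.0522 to 0.129). In Tek_Cre against No_Cre Epor gained a call under 5 alternatives (adjusted p 0.0343 to 0.0450, against 0.0655 in the main analysis) and Glrx5 under 8 (0.0201 to 0.0466, against 0.0573). In Tek_Cre against No_Cre, 1 in place of 2 genes of heme handling rose and 5 in place of 3 of iron-sulfur assembly fell under some alternatives. The low counts of Alas2 outside Prx1_Cre limit its values there.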

Other observations

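Markers of 3 further cell types were summed. Monocyte and dendritic cell markers summed to 146 to 156 CPM in No_Cre, 97.7 to 103 in Tek_Cre and 227 to 242 in Prx1_Cre. B and plasma cell markers summed to 844 to 868, 2577 to 2637 and 297 to 303 CPM in the same order, with the B cell factor Pax5 at 0 counts in Tek_Cre and Prx1_Cre. T and NK cell markers summed to 394 to 406, 203 to 221 and 264 to 273 CPM, with Cd3e at 0 counts in No_Cre and Prx1_Cre. The sums do not give the direction of single genes. In Prx1_Cre against No_Cre 3 of 7 monocyte and dendritic cell markers tested rose and 4 fell (median -0.46). F13a1 alone stood at 11.8 to 13.7 CPM in No_Cre and 113 to 125 in Prx1_Cre. All 11 B and plasma cell markers tested fell, and of 6 T and NK cell markers tested 0 rose and 5 fell. Nkg7 alone stood at 365 to 375 CPM in No_Cre. In Tek_Cre 0, 9 and 3 markers of these lists rose and 6, 2 and 3 fell. The part of these markers in the heme results was not tested.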
